A study of Mus musculus with 6 samples.

Results

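The genes described here encode the proteins of the cytosolic ribosome, followed in bone-marrow-derived macrophages of mice, phagocytic cells grown from marrow, that had been treated with MSU (monosodium urate, the crystal of gout). Members were the protein-coding genes of the deposited table whose symbol is Rpl or Rps followed by a number and at most a letter and a digit, is Rplp with a digit, or is Rpsa, which gave 83 of 54532 genes. The 6 libraries were 3 of cells labelled Tet2 knockout and 3 of cells labelled wild-type, and cells without MSU are not part of the comparison, which concerns the genotype label within the treated state. The product of Tet2 is a dioxygenase that acts on methylated bases of DNA. The allele, any Cre driver, the strain, sex and age of the mice, and the time and dose of MSU are not stated in the labels or the design text. Whether each library is its own animal or culture is likewise unstated, so the p-values reflect library-to-library spread alone, possibly technical.

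As background, the ribosome joins a large and a small subunit, each built from ribosomal RNA and proteins that are made in the cytoplasm and carried to the nucleolus for assembly. Messenger RNAs of these proteins are among the most abundant of a growing cell and most begin with a run of pyrimidines, the TOP motif, through which the kinase mTORC1 and the RNA-binding protein Larp1 set their translation and stability as a group. Nearly every member also has processed pseudogenes, intronless copies scattered over the genome, some of them almost identical in sequence. In macrophages the demand for ribosomes changes with growth and activation.

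Depth was 13425170 to 14481843 total counts in libraries labelled Tet2 knockout and 11997104 to 13881435 in those labelled wild-type. Tet2, the targeted gene, was not lower in the libraries labelled knockout: it had 467, 482 and 450 counts there, against 413, 338 and 427 in the wild-type ones (log2 fold change 0.20, SE 0.07, edgeR adjusted p = 0.0159). Leaving out either replicate 2 ended this call, with edgeR adjusted p = 0.0553 for the one labelled knockout and 0.0799 for the wild-type one. As the allele is not stated, counts over the whole gene cannot check the label either way, and groups are named by label throughout. Of 8 macrophage markers all 8 were detected, with a summed level of 5751 to 6027 CPM (counts scaled to library size, with TMM factors) in the libraries labelled knockout and 5532 to 5905 CPM in the wild-type ones, and 4 of them were higher and 3 lower. Fibroblast markers were also abundant, the 6 genes summing to 6448 to 6612 CPM in the libraries labelled knockout and 6709 to 7185 CPM in the wild-type libraries, most of it from the collagen genes Col1a1, Col1a2 and Col3a1. Of these 6 genes 1 was higher and 3 were lower. Of the 6 neutrophil markers only S100a8 passed the filter on low counts and Ly6g was at 0, none of the T cell, B cell, mast cell and basophil or erythroid markers passed, and all 3 erythroid markers were at 0. Of 2 dendritic cell markers tested, Xcr1 was higher. Dendritic cell markers were scarce, the 3 listed summing to 4.982 to 6.535 CPM in the libraries labelled knockout and 3.197 to 4.747 CPM in the wild-type ones. Among 7 genes of cycling cells 6 were higher and 0 lower by edgeR (0 lower also at an unadjusted p under 0.05, and by DESeq2 and limma-voom), with summed levels of 840.5 to 850.0 CPM in the libraries labelled knockout and 650.1 to 657.9 CPM in those labelled wild-type. By the same edgeR test 21.6% of all genes tested were higher and 19.2% lower. In bulk RNA fewer cells of a type and less RNA per cell cannot be told apart, and the part of cell composition or cycling in the results below was not tested.

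Most ribosomal protein genes differed little between the groups. Of the 83 members 81 passed the filter on low counts, and 71 of these 81 lay within 10% of the wild-type level. Standing apart were Rpl34 and Rps3a1, both lower in the libraries labelled knockout, which have near-identical pseudogenes that were higher there. In edgeR's quasi-likelihood test with Benjamini-Hochberg adjustment over all 13175 genes tested, a gene being called where its adjusted p was under 0.05, 19 members rose and 6 fell (10 and 14 with scaling by total count), which together is 30.9% of the 81, whereas 40.9% of all genes tested were called, 21.6% higher and 19.2% lower. The remaining 56 members were not called. Groups did not overlap for 19 members that were higher and 7 that were lower, against 24.8% of all genes tested higher and 23% lower without overlap.

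The size of the differences was small throughout. The median log2 fold change of the 81 members was 0.03, and over all genes tested it was -0.003. The median of the absolute log2 fold change was 0.05 for the members and 0.17 for all genes tested. These 2 medians were not matched for level: 76 members had at least 1000 counts in every library, while all genes tested include many with few counts and larger error. Only 1 member, Rpl34, differed by at least 1.5-fold. The balance of rises over falls rested on how the libraries were scaled: with upper-quartile scaling 13 rose and 9 fell, and with scaling by total count alone 10 rose and 14 fell, the median of members was -0.01 and that of all genes tested was -0.04. With an assumed biological coefficient of variation of 0.1 in place of the very small one of these libraries (2.63% in common over genes), 0 rose and 2 fell by edgeR, with 1 higher at an unadjusted p under 0.05.

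**Figure D1:**
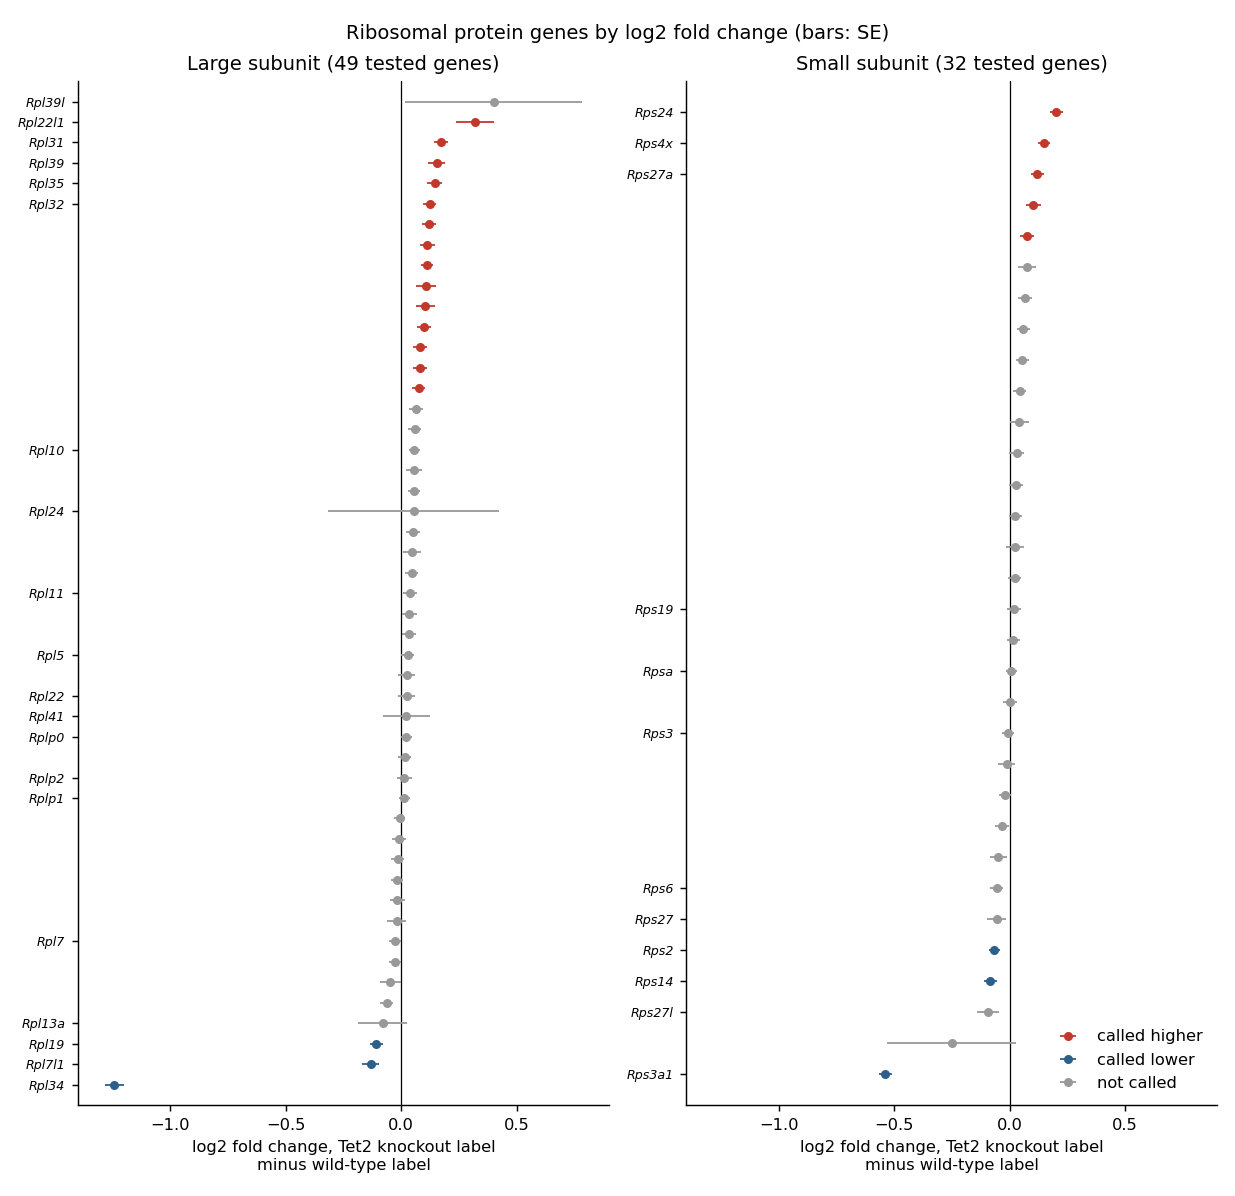
Log2 fold change of each of the 81 tested members (horizontal axis, libraries labelled Tet2 knockout minus those labelled wild-type) by gene (vertical axis, with names for the genes described in full), in 2 panels for the large and the small subunit. Points are estimates and bars their SE from edgeR. Most genes sit near 0, Rpl34 at -1.24 and Rps3a1 at -0.54 stand far to the left, and most of the widest bars belong to members with few counts. Red genes were called higher and blue lower, 19 and 6 here and 10 and 14 with scaling by total count.

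As a share of all counts the members made up 2.475 ± 0.016% in the libraries labelled knockout and 2.529 ± 0.057% in the wild-type libraries (SD, n = 3 each). Library by library the share was 2.486, 2.483 and 2.457% in the libraries labelled knockout, against 2.501, 2.594 and 2.491% in those labelled wild-type. The groups came close but did not overlap, and the difference of -0.053 percentage points gave p = 0.1 in a two-sided exact permutation test, the smallest value that 3 against 3 can give. Rpl34 and Rps3a1 are part of this share, and it was not computed without them. Paired pseudogenes held a further 0.076, 0.075 and 0.073% in the libraries labelled knockout, against 0.060, 0.067 and 0.058% in those labelled wild-type. With them added to the members the difference was -0.040 percentage points. The 3 wild-type libraries were not alike: replicate 2, the shallowest, held the highest level of 26 of the 81 tested members, and replicate 3 the lowest level of 35. Replicate 1 of the knockout label held the highest level of nearly as many, 25, and wild-type replicate 1 the lowest level of 18. The same counts over all genes tested are not reported here. Without wild-type replicate 2 the share difference was -0.021 percentage points, and 27 members were called higher and 4 lower, with a median log2 fold change of 0.04. Without wild-type replicate 3 the median was 0.01.

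**Figure D2:**
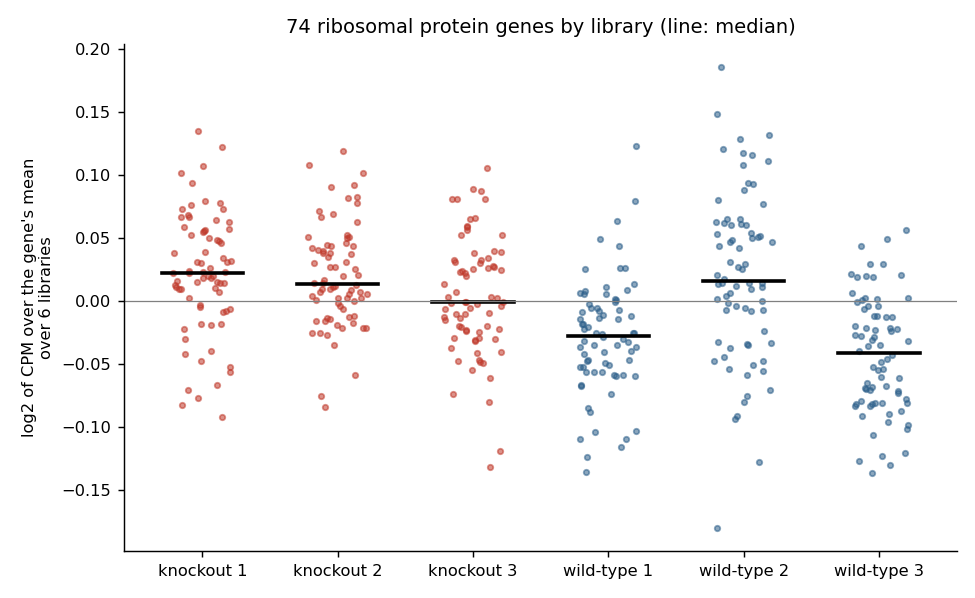
Level of 74 members in each library as log2 of CPM over the gene's mean across the 6 libraries (vertical axis), with 1 point per gene and a line at the median, for libraries labelled knockout (red, left) and wild-type (blue, right). The 74 are the members with at least 1000 counts in every library, leaving out Rpl34 and Rps3a1. Points run from -0.180 to 0.186, and the median of wild-type replicate 2 (0.016) lies among those of the libraries labelled knockout (-0.001 to 0.022), above wild-type replicates 1 (-0.028) and 3 (-0.041).

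Rpl34 encodes eL34, a large-subunit protein found in eukaryotes and archaea, and Rps3a1 encodes eS1, which sits on the platform of the small subunit near the exit of the messenger RNA. Rpl34 (ENSMUSG00000062006, mm10 chromosome 3, positions 130726831 to 130730398, minus strand) had 75.4, 82.6 and 86.7 CPM in the libraries labelled knockout, against 190.8, 191.6 and 195.8 CPM in the wild-type libraries. Every library labelled knockout lay far under every wild-type library. The log2 fold change was -1.24 (SE 0.039, edgeR adjusted p = 4.33e-52). Rps3a1 (ENSMUSG00000028081, mm10 chromosome 3, positions 86137940 to 86142702, minus strand) had 374.6, 357.9 and 369.6 CPM in the libraries labelled knockout, against 524.4, 556.7 and 520.1 CPM in the wild-type ones. The groups were again far apart, and the log2 fold change was -0.54 (SE 0.027, edgeR adjusted p = 1.01e-34). Both kept this direction and the call under all 19 alternatives run.

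Rpl34-ps1 (mm10 chromosome 6, positions 71124610 to 71124963, plus strand) matched the 354 bases of the Rpl34 coding sequence with 2 differences (99.4% identity). Counting from 1 at the first base of the Rpl34 start codon, with the gene's base first and the pseudogene's last, they were T132C and C318G. The windows of 31 bases around them, from the GENCODE M21 transcripts of build GRCm38 (mm10), are shown because these are the only coding positions at which a read can tell the copies apart. Capitals mark the base that differs.
Rpl34, coding bases 117 to 147: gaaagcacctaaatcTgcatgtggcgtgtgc
Rpl34-ps1, coding bases 117 to 147: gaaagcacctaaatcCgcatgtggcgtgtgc
Rpl34, coding bases 303 to 333: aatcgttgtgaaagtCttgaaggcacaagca
Rpl34-ps1, coding bases 303 to 333: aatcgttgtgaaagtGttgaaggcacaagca

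Rps3a1 has 2 such copies with many counts. Rps3a2 (chromosome 14, positions 88123017 to 88123808, minus strand) carried 4 differences over 792 matched bases (99.5% identity), T216C, T534C, A645T and T668C. Rps3a3 (chromosome 13, positions 108670603 to 108671397, plus strand) carried 9 over 795 bases (98.9% identity), of which T216C and T534C were the same changes as in Rps3a2. The stretch of coding bases 630 to 683 is shown because each of the 3 copies has its own letters there, again with the differing positions (645, 660 and 668) in capitals.
Rps3a1: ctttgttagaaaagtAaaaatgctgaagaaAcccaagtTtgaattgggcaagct
Rps3a2: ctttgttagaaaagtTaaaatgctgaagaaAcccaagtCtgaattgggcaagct
Rps3a3: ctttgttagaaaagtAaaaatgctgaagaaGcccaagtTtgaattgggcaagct

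The pseudogenes moved the opposite way. Rpl34-ps1 had 784, 795 and 719 counts in the libraries labelled knockout, against 38, 48 and 47 in the wild-type libraries, a log2 fold change of 4.06 (SE 0.10, edgeR adjusted p = 7.93e-62). Rps3a3 had 961, 935 and 854 counts in the libraries labelled knockout, against 32, 46 and 37 in the wild-type ones, a log2 fold change of 4.52 (SE 0.10, edgeR adjusted p = 1.14e-66). Rps3a2 had 370, 351 and 346 counts in the libraries labelled knockout, against 55, 43 and 62 in the wild-type ones, a log2 fold change of 2.68 (SE 0.12, edgeR adjusted p = 3.99e-40). No library of either group came near the other group for any of the 3 pseudogenes.

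Counts of the gene and of its pseudogenes were therefore also summed. The 5 pseudogenes paired with Rpl34 took 42.9, 41.3 and 39.4% of the joint counts in the libraries labelled knockout, against 1.94, 2.85 and 2.26% in the wild-type libraries. The 6 paired with Rps3a1 took 20.8, 21.2 and 20.4% in the libraries labelled knockout, against 1.95, 2.16 and 1.99% in the wild-type ones. Over the 73 members that averaged at least 500 counts and had a paired pseudogene, the median share was 2.19% in the libraries labelled knockout and 2.07% in the wild-type libraries. The joint level of Rpl34 was 138.6 ± 5.7 CPM in the libraries labelled knockout and 197.4 ± 2.9 CPM in the wild-type ones (SD, n = 3 each), a log2 fold change of -0.51 (SE 0.035, edgeR adjusted p = 1.11e-24). That of Rps3a1 was 463.6 ± 9.4 CPM in the libraries labelled knockout and 544.8 ± 21 CPM in the wild-type ones, a log2 fold change of -0.23 (SE 0.027, edgeR adjusted p = 1.28e-12). Summing thus left both genes lower, by less than the gene counts alone gave. How reads that match several copies were counted is not stated in the labels or the processing notes, so the split of reads between these genes and their pseudogenes is uncertain, and its part in the differences was not tested.

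**Figure D3:**
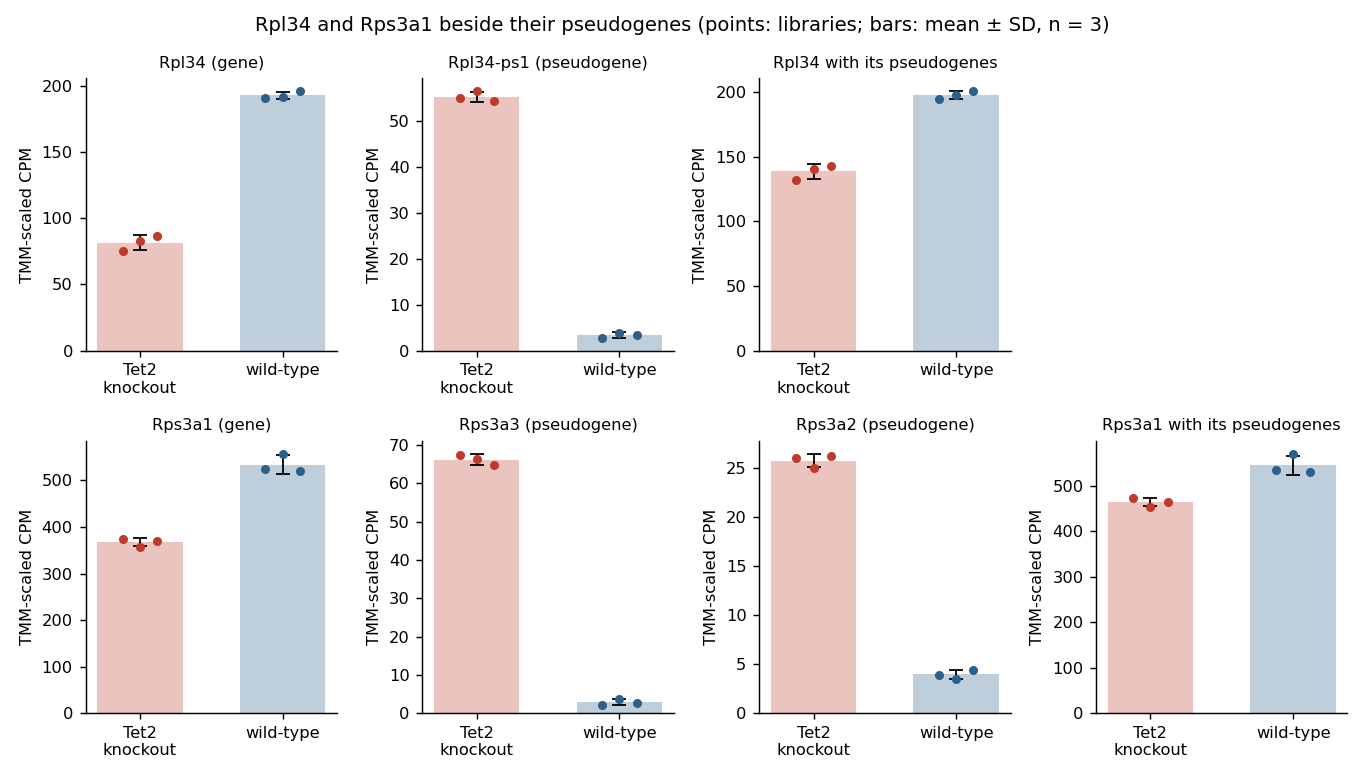
Levels of Rpl34 and Rps3a1, of their most counted pseudogenes and of each gene summed with its pseudogenes, in TMM-scaled CPM (vertical axes from 0), for libraries labelled Tet2 knockout (left) and wild-type (right). Points are libraries, bars the mean and lines the SD (n = 3 each). The genes are lower and the pseudogenes higher in the libraries labelled knockout, and the joint levels are lower by less than the genes alone.

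Rpl34 and Rps3a1 both lie on chromosome 3, as Tet2 does (mm10 positions 133463679 to 133545139). Rpl34 is 2.73 Mb from Tet2 and Rps3a1 47.3 Mb. The other chromosome 3 members are Rps27, 43.3 Mb away, which was not called, and Rpl22l1, 105 Mb away, which rose. Among the 647 genes tested on chromosome 3, 42.8% were called, close to the 40.9% of all genes tested. Whether position on this chromosome had a part in the 2 falls was not tested.

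Opposite movement of a called member and a called pseudogene was limited to those 2 genes among the pairs tested. In all, 706 pseudogenes were paired with members by symbol or by at least 95% identity over at least 80% of their length. Of these, 163 passed the filter on low counts, and 8 were called, 6 higher and 2 lower. Over all genes tested 40.9% were called, 21.6% higher and 19.2% lower. Many of the 163 had few counts, so smaller opposite movements among those not called could not be seen. Beside the 3 described, Gm8430, a copy of Rps27a, Rpl39-ps, a copy of Rpl39, and Rpl31-ps16, a copy of Rpl31, were higher, as were those 3 genes. Gm28530, a copy of Rps7, and Gm11249, a copy of Rps2, were lower. These 5 were chosen for naming after their values were seen, and all of them had at most 54 counts in any library. The most counted pseudogene over the 6 libraries, Gm15500, identical to Rpl5 over the matched bases, had 38.3 ± 0.5 CPM in the libraries labelled knockout and 38.2 ± 5.2 CPM in the wild-type ones (SD, n = 3 each).

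Among proteins of the large subunit, leaving aside paralogues, 13 of 46 rose and 2 fell, with a median log2 fold change of 0.04. The 32.6% called lay under the 40.9% of all genes tested, of which 21.6% rose and 19.2% fell. With upper-quartile scaling 8 rose and 3 fell, and with scaling by total count 6 rose and 5 fell. Rpl31, whose protein lies beside the exit of the peptide tunnel, had 295.9, 305.2 and 299.6 CPM in the libraries labelled knockout, against 273.5, 259.3 and 266.3 CPM in the wild-type ones. Its groups did not overlap, and the log2 fold change was 0.17 (SE 0.029, edgeR adjusted p = 4.86e-07). Rpl39, a very small protein that lines the tunnel, had 154.9, 152.7 and 148.2 CPM in the libraries labelled knockout, against 132.4, 141.1 and 136.6 CPM in the wild-type ones, a log2 fold change of 0.15 (SE 0.037, edgeR adjusted p = 0.000266). Rpl35, which also sits at the tunnel exit, had 201.1, 202.0 and 197.8 CPM in the libraries labelled knockout, against 177.5, 185.8 and 180.3 CPM in the wild-type ones, a log2 fold change of 0.15 (SE 0.033, edgeR adjusted p = 0.000139). Both were higher in every library labelled knockout than in any wild-type library. Rpl32 had 344.2, 314.1 and 322.2 CPM in the libraries labelled knockout, against 303.3, 301.0 and 296.4 CPM in the wild-type ones, again without overlap (log2 fold change 0.12, SE 0.029, edgeR adjusted p = 0.000302). The other 9 rises of this subunit, in Rpl29, Rpl37a, Rpl3, Rpl38, Rpl36a, Rpl12, Rpl9, Rpl28 and Rpl21, lay between 0.08 and 0.12 on the log2 scale, and groups overlapped for Rpl37a, Rpl36a, Rpl12 and Rpl28.

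Beside Rpl34, the large subunit had 1 other fall. Rpl19, whose protein forms a bridge to the small subunit, had 331.4, 314.5 and 316.6 CPM in the libraries labelled knockout, against 348.2, 348.7 and 340.1 CPM in the wild-type ones. Its groups did not overlap, and the log2 fold change was -0.11 (SE 0.028, edgeR adjusted p = 0.00109).

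Of the proteins of the small subunit, 5 of 31 rose and 3 fell, with a median log2 fold change of 0.02. The 25.8% called again lay under the 40.9% of all genes tested. With upper-quartile scaling 4 rose and 4 fell, and with scaling by total count 3 rose and 7 fell. Rps24, a gene mutated in some people with Diamond-Blackfan anemia, had 357.3, 360.2 and 347.2 CPM in the libraries labelled knockout, against 312.8, 310.8 and 301.8 CPM in the wild-type ones. No libraries overlapped, and the log2 fold change of 0.20 (SE 0.028, edgeR adjusted p = 1.40e-09) was the largest rise of any member with at least 1000 counts in every library. Rps4x, the X-linked gene of eS4, had 452.9, 467.2 and 453.6 CPM in the libraries labelled knockout, against 401.7, 422.2 and 414.6 CPM in the wild-type ones, a log2 fold change of 0.15 (SE 0.027, edgeR adjusted p = 1.49e-06). Both genes were higher in every library labelled knockout. Rps27a, which is made as a fusion with ubiquitin, had 339.8, 323.9 and 311.9 CPM in the libraries labelled knockout, against 298.1, 305.0 and 295.1 CPM in the wild-type ones, without overlap (log2 fold change 0.12, SE 0.029, edgeR adjusted p = 0.000388). Rps15a, a small-subunit protein, rose by 0.10 on the log2 scale.

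Rps2 and Rps14 fell slightly. Rps2, a protein at the entry of the messenger RNA channel, had 1136.8, 1169.4 and 1158.2 CPM in the libraries labelled knockout, against 1170.2, 1260.5 and 1197.8 CPM in the wild-type ones, and the groups nearly touched. Its log2 fold change was -0.07 (SE 0.024, edgeR adjusted p = 0.0169). Rps14, whose human gene lies in the region lost in the 5q- syndrome, had 393.8, 417.8 and 403.1 CPM in the libraries labelled knockout, against 411.7, 453.5 and 422.5 CPM in the wild-type ones (log2 fold change -0.08, SE 0.028, edgeR adjusted p = 0.013), and its groups overlapped. Both calls were lost without wild-type replicate 2 (edgeR adjusted p = 0.0733 for Rps2 and 0.101 for Rps14), without the library labelled knockout replicate 1 (0.136 and 0.148 in the same order) and without replicate 3 of that group (0.0517 and 0.0611). The calls of 10 of the 19 rises and of Rpl34, Rps3a1, Rpl19 and Rpl7l1 were lost under no alternative but the assumed spread, which kept Rpl34 and Rps3a1.

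Members without a counterpart in bacteria were called in 16 of 42 cases, 13 higher and 3 lower, and those with one in 7 of 33, 5 higher and 2 lower. Scaling by total count gave 7 higher and 7 lower for the first of these sets, and 2 higher and 5 lower for the second. The shares called, 38.1% and 21.2%, are both under the 40.9% of all genes tested, and the difference between them was not tested. All 4 X-linked members had a positive log2 fold change, and Rpl39, Rps4x and Rpl36a were called higher, against 21.6% of all genes tested. The share among all X-linked genes was not computed. Groups overlapped for Rpl36a, whose call was lost under 8 of the 19 alternatives run. The X-linked Rpl10, whose protein completes the large subunit late in assembly, had 565.5, 564.9 and 561.5 CPM in the libraries labelled knockout, against 531.9, 553.5 and 541.0 CPM in the wild-type ones. Its groups did not overlap, yet it was not called (log2 fold change 0.06, SE 0.025, edgeR adjusted p = 0.0625).

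The stalk proteins, which recruit translation factors to the ribosome, differed by less than the tests could call: 0 of 3 were called by edgeR, DESeq2 or limma-voom, and 0 had an unadjusted p under 0.05 in edgeR. Over all genes tested edgeR called 40.9%, and with only 3 genes a count of 0 says little. Rplp0, the base of the stalk, had 1078.8, 1070.9 and 1066.4 CPM in the libraries labelled knockout, against 1039.9, 1072.3 and 1054.8 CPM in the wild-type ones, and the 95% interval of its log2 fold change ran from -0.02 to 0.07. Rplp1, an arm of the stalk, had 722.2, 712.6 and 673.5 CPM in the libraries labelled knockout, against 672.8, 713.8 and 702.6 CPM in the wild-type ones, with an interval of -0.04 to 0.06. Groups overlapped for both. Rplp2, the other arm, had 258.3, 258.2 and 256.4 CPM in the libraries labelled knockout, against 246.8, 278.4 and 241.6 CPM in the wild-type ones, with an interval of -0.05 to 0.08. Wild-type replicate 2 was the high library, and without it Rplp2 was called higher (log2 fold change 0.07, edgeR adjusted p = 0.0397).

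Rpl5 and Rpl11 form a particle with the 5S ribosomal RNA and bind Mdm2 when not in ribosomes. Rpl5 had 405.8, 406.2 and 406.1 CPM in the libraries labelled knockout, against 400.6, 402.2 and 392.4 CPM in the wild-type ones, without overlap but with an interval of -0.03 to 0.08 that held 0. Rpl11 had 332.7, 325.8 and 334.5 CPM in the libraries labelled knockout, against 316.4, 345.4 and 305.8 CPM in the wild-type ones (interval -0.02 to 0.10). Its groups overlapped through wild-type replicate 2, without which it was called higher (log2 fold change 0.08, edgeR adjusted p = 0.00678).

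Several members known for roles beyond the ribosome were also not called. Rps6, the substrate of the S6 kinases, had 333.5, 334.6 and 333.3 CPM in the libraries labelled knockout, against 337.3, 359.1 and 345.5 CPM in the wild-type ones. The groups did not overlap (log2 fold change -0.06, SE 0.028, edgeR adjusted p = 0.102), and it was called lower with upper-quartile scaling, with scaling by total count and without wild-type replicate 1. Rpsa, also known as a laminin receptor, had 731.1, 734.8 and 702.8 CPM in the libraries labelled knockout, against 714.3, 733.8 and 710.5 CPM in the wild-type ones. Rps3, which also binds NF-kappaB proteins, had 620.5, 636.4 and 629.0 CPM in the libraries labelled knockout, against 617.6, 658.9 and 617.5 CPM in the wild-type ones. Groups overlapped for both, and their log2 fold changes were 0.01 and -0.01 (SE 0.025 and 0.026). Rps19, the gene most often mutated in human Diamond-Blackfan anemia, had 245.3, 243.6 and 239.9 CPM in the libraries labelled knockout, against 235.5, 243.1 and 241.7 CPM in the wild-type ones, with overlap. Rpl13a, which in human monocytes leaves the ribosome after interferon-gamma and blocks translation of inflammatory messenger RNAs, had 185, 201 and 179 counts in the libraries labelled knockout, against 208, 207 and 160 in the wild-type ones, and was not called (log2 fold change -0.08, SE 0.11, edgeR adjusted p = 0.593).

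Levels of members spread widely when set per kilobase of the shortest principal transcript in GENCODE M21. The highest were Rplp1, at 1408 CPM per kb in the libraries labelled knockout and 1396 CPM per kb in the wild-type ones, Rps2 at 1157 and 1212 CPM per kb in the same order, Rpl41, the shortest ribosomal protein, at 828 and 816 CPM per kb, and Rplp0 at 789 and 777 CPM per kb. Rpl41 varied most among the abundant members, with 377.8, 359.4 and 347.7 CPM in the libraries labelled knockout, against 332.9, 408.5 and 328.9 CPM in the wild-type ones. Wild-type replicate 2 was the high one, and without it Rpl41 was called higher (log2 fold change 0.12, edgeR adjusted p = 2.5e-05).

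Rpl24, Rps10 and Rpl13a had levels far under those of the other core members. Rpl24 had 15, 13 and 16 counts in the libraries labelled knockout, against 22, 10 and 9 in the wild-type ones, and Rps10 had 32, 15 and 26 counts in the libraries labelled knockout, against 33, 22 and 29 in the wild-type ones. Each of the 3 genes overlaps, on its own strand, another annotated gene listed at 0 counts in every library (Gm28037, RPS10-NUDT3 and Gm45713). So does Rpl13 (with Gm20388), which was abundant, at 498.2 ± 9.4 CPM in the libraries labelled knockout and 480.2 ± 21.8 CPM in the wild-type ones (SD, n = 3 each). Pseudogenes took 90.7 to 93.3% of the joint counts of Rpl24 in the libraries labelled knockout and 89.6 to 94.6% in the wild-type ones, and 74.8 to 88.7% of those of Rps10 in the libraries labelled knockout and 74.1 to 81.4% in the wild-type ones. For Rpl13a the share was lower, 21.2 to 25.1% in the libraries labelled knockout and 15.5 to 25.2% in the wild-type ones. Low levels of these members are thus uncertain as measures of their messenger RNA, and the part of overlap or of copies was not tested.

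Paralogues, genes for variants of a ribosomal protein, were at low to moderate levels and split. Rpl22l1, the paralogue of Rpl22, had 29.5, 26.7 and 25.1 CPM in the libraries labelled knockout, against 22.2, 23.4 and 19.6 CPM in the wild-type ones. Its groups did not overlap, and its log2 fold change of 0.32 (SE 0.081, edgeR adjusted p = 0.000624) was the largest called rise of all members. Its parent Rpl22 had 137.8, 134.9 and 138.6 CPM in the libraries labelled knockout, against 135.6, 140.9 and 128.7 CPM in the wild-type ones, overlapped and was not called. Rpl7l1, the paralogue of Rpl7, had 135.6, 141.8 and 131.7 CPM in the libraries labelled knockout, against 151.1, 155.0 and 143.0 CPM in the wild-type ones, a log2 fold change of -0.13 (SE 0.037, edgeR adjusted p = 0.00215), without overlap. Its parent Rpl7 had 417.5, 406.2 and 397.7 CPM in the libraries labelled knockout, against 410.8, 426.8 and 407.7 CPM in the wild-type ones, and was not called. Rps27l, the paralogue of Rps27 and a target of p53, had 78.9, 78.3 and 79.2 CPM in the libraries labelled knockout, against 88.8, 89.1 and 74.9 CPM in the wild-type ones. It was not called, and without wild-type replicate 3, the low one, it fell (log2 fold change -0.18, edgeR adjusted p = 0.00257). Its parent Rps27 stood at 96.6 ± 1.1 CPM in the libraries labelled knockout and 100.5 ± 1.0 CPM in the wild-type ones (SD, n = 3 each) and was not called. Rpl39l, the paralogue of Rpl39 best known from testis, had 8, 18 and 22 counts in the libraries labelled knockout, against 7, 13 and 15 in the wild-type ones, and was not called (log2 fold change 0.40, SE 0.38, edgeR adjusted p = 0.433). The 2 members that did not pass the filter were also paralogues: Rpl3l, of striated muscle, had 2, 1 and 0 counts in libraries of the knockout label and 0 in every wild-type library, and Rpl10l, of testis, had 0 in all 6.

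The symbol rule misses some ribosomal genes, of which 3 are described. Rack1, a scaffold of signalling on the small subunit, and Fau, made as a fusion with a ubiquitin-like protein, were not called. Rpl36al, the paralogue of Rpl36a, did not pass the filter, with 0.75 ± 0.09 CPM in the libraries labelled knockout and 0.57 ± 0.005 CPM in the wild-type ones (SD, n = 3 each).

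The TOP motif was looked for in RefSeq's start windows (GRCm38.p6). It was searched as a C at the annotated start followed by at least 4 bases that are each C or T, on the coding strand only because the motif is a feature of the messenger RNA, and no other motif was searched. Windows were there for 63 of the 83 members, and 13 of the 63 (20.6%) had such a start, against 813 of the 27025 symbols with a RefSeq window (3.0%). Among members called higher 4 of 13 had it, among those called lower 0 of 5, among those tested and not called 9 of 43, and these differences were not tested. Annotated starts can be off by some bases, so a missing match says only that these letters are not at the annotated position. The 20 bases before and after the start are shown for 3 members that rose and for Rps6, with the pyrimidine run in capitals. Of the 3 rises, the call of Rpl38 was lost under 10 of the 19 alternatives run, that of Rpl28 under 9 and that of Rpl35 under 1.
Rpl35, chr2:39005112-39005151, minus strand: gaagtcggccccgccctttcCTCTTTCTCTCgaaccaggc
Rpl38, chr11:114668560-114668599, plus strand: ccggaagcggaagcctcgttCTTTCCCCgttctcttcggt
Rpl28, chr7:4792945-4792984, plus strand: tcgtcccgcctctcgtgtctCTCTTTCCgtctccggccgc
Rps6, chr4:86857348-86857387, minus strand: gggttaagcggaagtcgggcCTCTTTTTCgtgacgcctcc

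Other TOP messenger RNAs, those of elongation and initiation factors and their partners, split in direction: of 18 tested 5 rose and 6 fell, with a median log2 fold change of -0.02, and with scaling by total count 3 rose and 9 fell. In the main test 21.6% of all genes tested rose and 19.2% fell. Summed over the 18 genes, the level was higher in the libraries labelled knockout, at 12900 to 13010 CPM against 12260 to 12390 CPM in the wild-type ones, without overlap. Eef2, the factor that moves the ribosome along the messenger RNA, stood at 2035 ± 7.9 CPM in the libraries labelled knockout and 1795 ± 22.3 CPM in the wild-type ones (SD, n = 3 each; log2 fold change 0.18, edgeR adjusted p = 3.67e-12). Pabpc1, the poly(A)-binding protein, rose by 0.14 on the log2 scale (edgeR adjusted p = 3.73e-08). Eif4a2, an RNA helicase of initiation, fell by 0.29 (edgeR adjusted p = 9.14e-11), and Naca, which binds nascent chains at the ribosome, fell by 0.19 (edgeR adjusted p = 7.09e-08).

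Genes that build ribosomes were mostly lower in the libraries labelled knockout. Of 51 genes of ribosome assembly and ribosomal RNA processing, 33 fell, 1 rose and 17 were not called, with a median log2 fold change of -0.19, against the 19.2% of all genes tested that fell. Their summed level was 3893 to 3984 CPM in the libraries labelled knockout and 4402 to 4503 CPM in the wild-type ones, without overlap. Gnl3, the nucleolar GTPase nucleostemin, stood at 61.1 ± 6.6 CPM in the libraries labelled knockout and 83.4 ± 2.5 CPM in the wild-type ones (SD, n = 3 each; log2 fold change -0.45, edgeR adjusted p = 4.17e-12). Nop14, of the small-subunit processome, fell by 0.39 on the log2 scale (edgeR adjusted p = 1.88e-11). Eif6, which keeps the new large subunit from joining early, had 197.9, 196.7 and 209.6 CPM in the libraries labelled knockout, against 230.7, 257.1 and 241.8 CPM in the wild-type ones (log2 fold change -0.27, edgeR adjusted p = 1.50e-11). Npm1, the abundant nucleolar chaperone nucleophosmin, fell by 0.22 (edgeR adjusted p = 1.85e-11).

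The exception was Mdn1, a very large ATPase that strips assembly factors from the maturing large subunit. It had 79.6, 76.8 and 78.8 CPM in the libraries labelled knockout, against 64.9, 64.4 and 65.7 CPM in the wild-type ones, a log2 fold change of 0.27 (SE 0.048, edgeR adjusted p = 1.01e-06). The count of falls in this list ran from 30 to 37 under all alternatives except the assumed spread, under which 7 fell. No set test was made, and the list's difference from other genes was not tested.

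The machinery of ribosomal RNA synthesis was lower in part. For this list and the next, the shares over all genes tested were 21.6% higher and 19.2% lower. Of 20 genes of RNA polymerase I and its factors, shared polymerase subunits included, 9 fell and 0 rose, with a median log2 fold change of -0.17. By edgeR 0 were higher also at an unadjusted p under 0.05, limma-voom gave the same counts, and DESeq2 called 0 higher and 6 lower. Ubtf, the factor that opens the ribosomal RNA genes, stood at 141.1 ± 4.1 CPM in the libraries labelled knockout and 164.2 ± 6.2 CPM in the wild-type ones (SD, n = 3 each; log2 fold change -0.22, edgeR adjusted p = 2.25e-07). Rrn3, the initiation factor through which growth signals act on this polymerase, fell by 0.22 (edgeR adjusted p = 7.96e-05), as did the polymerase subunits Twistnb by 0.36 (edgeR adjusted p = 6.05e-06) and Polr2e by 0.25 (edgeR adjusted p = 4.16e-05). Of 12 host genes of small nucleolar RNAs, which guide modification of ribosomal RNA, 7 fell by edgeR, 4 by DESeq2 and 8 by limma-voom. None of these tools called a rise, and 0 were higher at an unadjusted p under 0.05 in edgeR. Gas5 stood at 40.7 ± 1.6 CPM in the libraries labelled knockout and 49.4 ± 2.7 CPM in the wild-type ones (SD, n = 3 each; log2 fold change -0.28, edgeR adjusted p = 5.70e-05), and Snhg15 fell by 0.81 (edgeR adjusted p = 1.14e-07). Without the library labelled knockout replicate 3, 4 of the host genes fell.

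**Figure D4:**
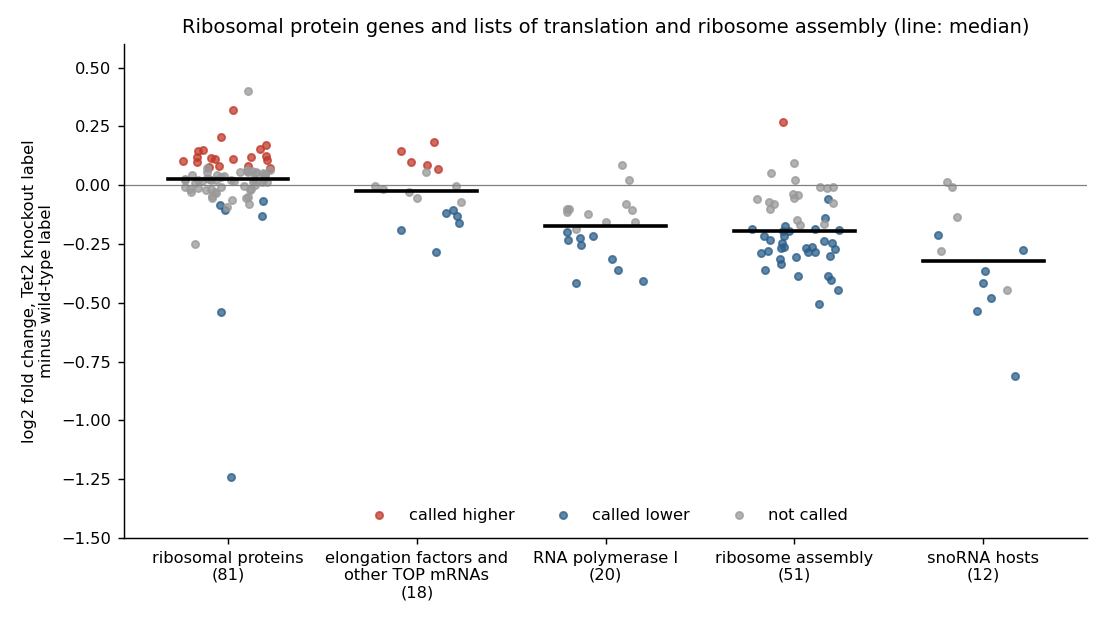
Log2 fold change (vertical axis, libraries labelled Tet2 knockout minus those labelled wild-type) of the 81 tested ribosomal protein genes and of the tested genes of 4 lists (number in brackets), with 1 point per gene, coloured by call, and a line at the median. Medians are 0.03 for ribosomal proteins (-0.01 with scaling by total count), -0.02 for elongation factors and other TOP messenger RNAs, -0.17 for RNA polymerase I, -0.19 for ribosome assembly and -0.32 for small nucleolar RNA hosts.

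Regulators of these genes split. Of 27 genes of the mTORC1 pathway, of binding to TOP messenger RNAs and of the Myc network, 8 rose, 8 fell and 11 were not called. For this list and those below, the shares over all genes tested were 21.6% higher and 19.2% lower. Mxd1, which pairs with Max against Myc, stood at 48.6 ± 1.2 CPM in the libraries labelled knockout and 19.6 ± 0.7 CPM in the wild-type ones (SD, n = 3 each; log2 fold change 1.31, edgeR adjusted p = 5.67e-33). Sesn1, a sestrin that restrains mTORC1, rose by 0.86 on the log2 scale (edgeR adjusted p = 5.79e-19). Cnbp, a nucleic-acid-binding protein that binds TOP messenger RNAs, fell by 0.25 (edgeR adjusted p = 7.83e-13), and Rragd, a Rag GTPase of mTORC1 activation, fell by 0.36 (edgeR adjusted p = 3.53e-10). Of 14 genes of ribosome quality control and stress, 3 rose and 3 fell, DESeq2 gave 3 higher and 1 lower, and the assumed spread gave 2 higher and 0 lower by edgeR (1 lower at an unadjusted p under 0.05). The 3 that rose were kinases that phosphorylate the initiation factor eIF2, namely Eif2ak2, Eif2ak4 and Eif2ak3, by 0.37, 0.37 and 0.26 on the log2 scale (edgeR adjusted p = 3.25e-18, 1.03e-05 and 0.00412 in that order), and Zfp598, which marks collided ribosomes, fell by 0.26 (edgeR adjusted p = 0.000171). Of 4 genes of the p53 response that free ribosomal proteins can set off, Cdkn1a fell by 0.25 (edgeR adjusted p = 1.42e-13) and Trp53 by 0.24 (edgeR adjusted p = 2.71e-06), and Mdm2 and Mdm4 were not called.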

How the data were processed

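RNA sequencing measured gene expression in 6 libraries, grouped by their genotype label. Per the labels' protocols, total RNA was extracted with an RNeasy Plus Mini kit and libraries were made with a NEBNext Ultra RNA kit. The submitters' processing notes name fastp, STAR, featureCounts and build mm10. Versions, the strand setting and the handling of reads that match several places are not given in the sources used here, so reads of overlapping genes on opposite strands cannot be told apart. The authors deposited raw read counts, whole numbers for each gene.

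The main test was run with edgeR 4.0.16 under R 4.3.3: filterByExpr with a minimum count of 10, TMM scaling, robust quasi-likelihood test, genotype label as the only term, Benjamini-Hochberg adjustment over 13175 genes and a threshold of 0.05. Levels are TMM-scaled CPM computed from the counts. Shares of counts were compared with an exact permutation test. Pseudogenes were paired by symbol or with BLAST 2.17.0 on GENCODE M21 transcripts, whose build matches the files. RefSeq start windows came from GRCm38.p6. The test was checked on simulated data. Figures used Python 3.11.15 and matplotlib 3.10.9. Alternatives were other scalings, DESeq2 1.42.0, limma-voom (limma 3.58.1), other filters, protein-coding genes only, an assumed spread, the replicate block, joint counts with pseudogenes, removal of a trend with gene length, and each library left out. Members and lists were chosen with earlier results of these data known. Genes named are the 8 largest called rises and falls, the highest and lowest levels per kb, fixed members of known role, paralogues with their parents, and up to 4 of each other list by smallest p, plus any that went against its list. Results of some genes that enter the counts are not reported here.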

Additional observations from a re-analysis of the deposited data

How the results depend on the processing

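Of the members called, 19 higher and 6 lower in the main test, scaling by total count gave 10 and 14, and an assumed coefficient of variation of 0.1 gave 0 and 2 by edgeR, with 1 higher at an unadjusted p under 0.05. With that assumed spread 1885 of all genes tested were called, against 5385 in the main test, and falls numbered 7 against 33 in ribosome assembly, 2 against 9 in RNA polymerase I and 3 against 7 among small nucleolar RNA hosts, for which DESeq2 gave 4. The median log2 fold change of members, 0.03, was -0.0138 with scaling by total count, where that of all genes was -0.044. Leaving out each library in turn gave 13 to 27 members higher, 4 to 8 lower, a median between 0.01 and 0.04, a difference in the share of counts between -0.072 and -0.021 percentage points, 30 to 35 falls in ribosome assembly, 7 to 9 in RNA polymerase I and 4 to 8 among small nucleolar RNA hosts. Beyond the effect of fewer libraries and of the shift that a scaling makes to every gene, the cause was not tested. No called gene named here reversed under any alternative run. The list counts under each alternative were added after the data had been seen, and protein-coding genes alone gave no value for the host genes.

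With the replicate number as a block, 18 members rose and 6 fell, and 5259 genes were called. The labels do not say what a number shares. Deviations of same-numbered libraries correlated at 0.004, -0.006 and -0.021 over all genes tested, where the other pairs ran from -0.015 to 0.022. Over the members the same-numbered values were 0.60, 0.49 and 0.30, and every library correlated best with its own number. With 3 libraries per group such a match can arise with nothing shared, so it does not show a pairing.

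With 11997104 to 14481843 counts per library most members had over 1000 counts in each. Error was still not small beside the differences. The SE was 0.043 for Rpl38 and 0.040 for Rpl36a on the log2 scale, and the members' median absolute log2 fold change was 0.05. Rpl24, Rps10 and Rpl39l had at most 33 counts, with an SE of 0.28 to 0.38 on the log2 scale, and Rpl13a had 160 to 208 counts with an SE of 0.11, so small differences such as those of most called members could not be seen in these 4.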
